A study of Mus musculus with 3 samples.

Results

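Of the genes that drive the cell division cycle, 55 were followed by phase in cardiac myofibroblasts: 11 G1 cyclins, kinases and E2F factors, 14 genes of DNA replication and 30 genes of mitosis. They were chosen by name from their known place in the cycle, and each was read by the array probes whose RefSeq transcript maps to it. Of the 55 genes, 54 were measured, among 15394 genes measured in all. The exception was Ccne2, which encodes cyclin E2: its 1 probe gave 5.20, 2.79 and 7.84 intensity units in adherent, non-adherent and re-adherent cells and was not well above background in any of them.

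The cells came from hearts of male C57BL/6J mice taken 3 days after the left anterior descending artery had been tied off for good, and the labels give the age as 8 weeks in one field and 10 weeks in another. The digested cells were left overnight to attach to plastic, and those without CD45, a leukocyte surface protein, were taken as myofibroblasts, the contractile matrix-producing cells of the injured heart. Adherent myofibroblasts were grown on plastic plates, non-adherent myofibroblasts were moved from plates into suspension, and re-adherent myofibroblasts were put back on plates after suspension. Each state was read by 1 array of RNA mixed from several hearts, so no difference has a replicate check and no p-value is given. Because the states followed each other, time in culture and state cannot be told apart. In this bulk RNA, fewer cells of a type and less RNA per cell also cannot be told apart.

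A dividing cell passes through G1, copies its DNA in S phase, and separates the copies in mitosis. In G1, D-type cyclins with the kinases Cdk4 and Cdk6, and then E-type cyclins with Cdk2, phosphorylate the retinoblastoma protein, which frees E2F factors to switch on replication genes. Genes of mitosis peak later, and many are driven through CCAAT boxes and cell cycle homology regions (CHR) bound by complexes that include B-Myb and FoxM1. Fibroblasts attached to a stiff surface cycle readily, whereas loss of attachment is known to hold untransformed cells in G1.

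Levels are the log2 processed signal minus the log2 of the array's 75th percentile, which was 651, 697 and 541 units for adherent, non-adherent and re-adherent cells. A level of 0 is thus the 75th percentile of the array, and levels of different probes are not compared. Differences are log2 differences between 2 arrays with the technical error of the spots, and a gene is called lower or higher where it differed over 2-fold. For the 54 measured genes that error had a median of 0.20 and ranged from 0.06 to 0.38, and each gene was well above background on all 3 arrays. The median over all 15394 genes was -0.07 for non-adherent minus adherent, 0.08 for re-adherent minus non-adherent and 0.06 for re-adherent minus adherent. Scaling to the E1A control spots moved these medians to -0.32, -0.13 and -0.39, so medians of gene groups are also given relative to all genes.

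The cells were checked against marker lists on the same arrays. All 12 myofibroblast markers were well above background on each array, with a signal, summed over the list and divided by the array's 75th percentile, of 3074 in adherent, 1256 in non-adherent and 2999 in re-adherent cells. In suspension 5 of them were lower and 2 higher. The lowest were Acta2, 99.4-fold lower, and Tagln, 63.1-fold lower, whereas Lum and Dcn were higher by 3.56 and 1.69. The gene with the largest share of the sum was Acta2 in adherent (21.7%), Col1a2 in non-adherent (21.0%) and Tagln in re-adherent cells (21.8%). The drop of the sum in suspension alone thus does not show a loss of myofibroblasts. Macrophage markers were present in spite of the depletion of CD45-positive cells: all 16 measured of 18 listed were well above background on every array, and their summed signal was 367, 2034 and 629. In suspension 15 of these 16 were higher, among them Ptprc, the gene for CD45, by 2.68. Summed endothelial signal, over 10 markers, was 17.6, 24.7 and 20.7, but Kdr alone made up 82.4%, 46.1% and 92.2% of it. Of the 10 endothelial markers, 6 were higher in suspension than in adherent cells and 8 were lower in re-adherent than in non-adherent cells, with a median of -3.34. Summed cardiomyocyte signal, over 6 measured of 9 markers, was 1.24, 1.98 and 3.38, of which Tnnt2 made up 73.6%, 69.1% and 89.9%, and 3 of the 6 were lower on re-adhesion, with a median of -0.95. Between re-adherent and adherent cells 8 of 16 macrophage markers were higher, with a median of 1.01, and 6 of 10 endothelial markers were lower, with a median of -1.99. The marker lists thus differed in all 3 pairs of arrays, and their part in the differences below was not tested.

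In suspension the cell cycle genes lay mostly below their adherent levels, and those of mitosis lay lowest. Of the 54 genes, 17 were lower in non-adherent than in adherent cells, which is 31.5% against 14.7% of all genes, and 0 were higher, against 17.2% of all genes. On re-adhesion 13 of 54 (24.1%) were higher than in suspension, against 15.6% of all genes, and 1, the replication inhibitor Gmnn, was lower, against 16.3%. The 13 became 7 after quantile normalization and 6 without scaling, so this count depends on the scaling. Between re-adherent and adherent cells 0 were lower, against 4.9% of all genes, and 1 was higher, Ccnd1, against 4.84%. The median of the 54 was -0.66 in suspension and 0.49 on re-adhesion, and it was -0.17 between re-adherent and adherent cells.

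The phases differed in size. In suspension 12 of 30 mitosis genes (40.0%), 3 of 10 measured G1 genes and 2 of 14 replication genes (14.3%) were lower, against 14.7% of all genes, so the replication count was at the share of all genes. Relative to all genes the group medians in suspension were -0.87 for mitosis, -0.34 for G1 and -0.21 for replication. On re-adhesion they were 0.47 for mitosis, 0.82 for G1 and 0.08 for replication, the last becoming -0.02 with the normexp background correction. Between re-adherent and adherent cells they were -0.32 for mitosis, 0.22 for G1 and -0.14 for replication.

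**Figure D1:**
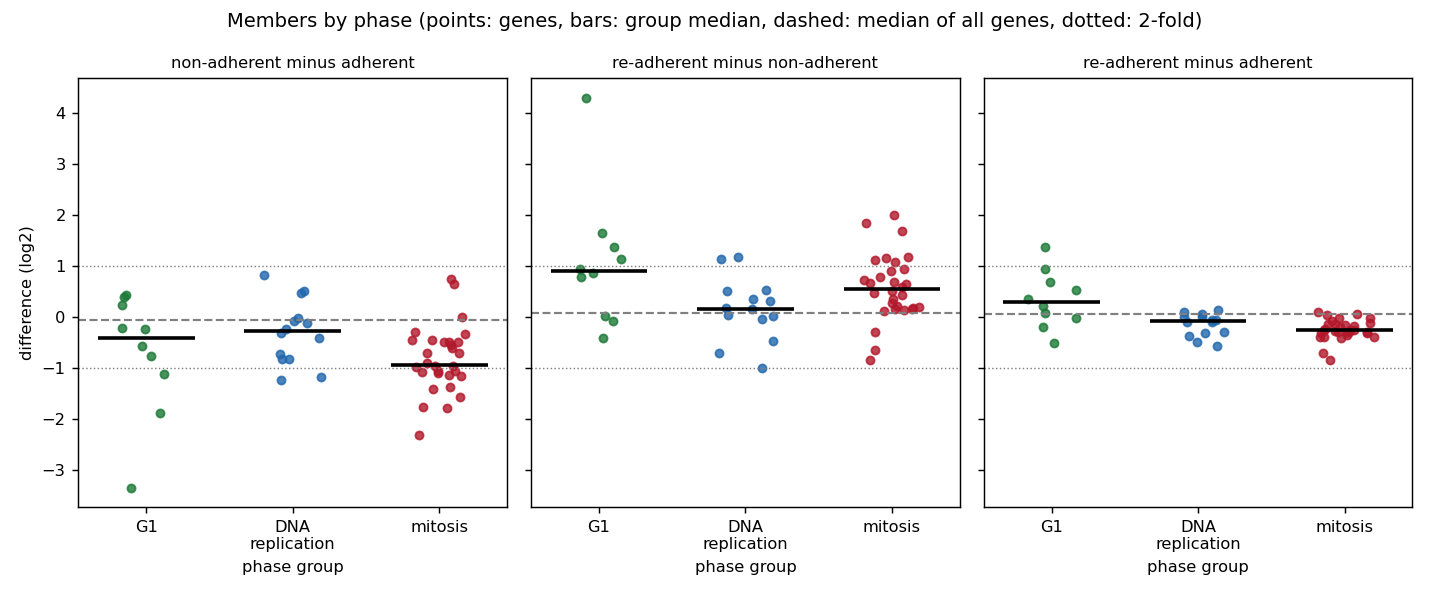
Log2 difference of each measured gene in the 3 pairs of arrays, by phase (G1, 10 genes; DNA replication, 14; mitosis, 30), with a bar at the group median, a dashed line at the median of all 15394 genes and dotted lines at 2-fold. The mitosis genes sit lowest in the first panel, with a median of -0.94, and all but 1 of the 54 points lie within 2-fold in the third panel.

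The D-type cyclins, which link outside signals to the cycle, did not move as a unit. Ccnd2 had a level of 4.90 in adherent, 1.54 in non-adherent and 5.84 in re-adherent cells. It fell by 3.36 ± 0.20 (technical error, 1 array each) in suspension, a 10.3-fold difference, and rose by 4.30 on re-adhesion, or 19.7-fold. Of the 54 genes it had the largest difference in both steps, and among all genes its difference in suspension lay at percentile 1.75 and that on re-adhesion at percentile 98.8.

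Ccnd3 had levels of 5.47, 4.35 and 5.99 in the same order. It fell by 1.12 in suspension and rose by 1.64 on re-adhesion, and its second probe gave -0.91 and 1.58. Ccnd1, which responds to growth factors, had levels of 4.27, 4.50 and 5.64. Its difference in suspension was 0.23, close to the technical error, and turned to -0.02 under another scaling. From suspension to re-adhesion Ccnd1 rose by 1.14, and it ended 1.37 above the adherent level, a 2.58-fold difference, or 0.91 with E1A scaling. All D-type cyclins were thus at their highest on the re-adherent array, with Ccnd2 ending 0.94 and Ccnd3 0.53 above adherent cells, or 0.48 and 0.07 under the scaling that gave the lowest values.

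The kinase partners of the D-type cyclins differed less. Cdk4 had levels of 6.01, 5.44 and 6.23, with a difference of -0.57 in suspension and 0.79 on re-adhesion. It ended 0.22 above the adherent level, a difference that became -0.24 under another scaling. Cdk6 had levels of -2.08, -2.33 and -1.39, so its re-adherent value was 0.69 above the adherent one.

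Downstream of these, Ccne1, which encodes cyclin E1, had levels of 3.61, 2.84 and 3.70. Its differences of -0.77 and 0.85 were below 2-fold, and its second probe gave -0.46 and 0.35. Cdk2, the kinase of E-type cyclins, had levels of -0.37, -0.60 and -0.58, a span of about the technical error.

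The E2F members went separate ways. E2f7, a repressor that is itself switched on late in G1, had levels of 2.03, 0.13 and 1.51. It fell by 1.89 in suspension and rose by 1.38 on re-adhesion, whereas its second probe gave -0.68 and 0.28. E2f8, its close relative, had levels of 1.05, 1.44 and 1.02, and E2f1, an activator of replication genes, had levels of 2.22, 2.65 and 2.57. Both were thus at their highest in suspension, by 0.39 for E2f8 and 0.43 for E2f1 over adherent cells, although E2f1 was only 0.08 lower in re-adherent cells, which is within its technical error.

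**Figure D2:**
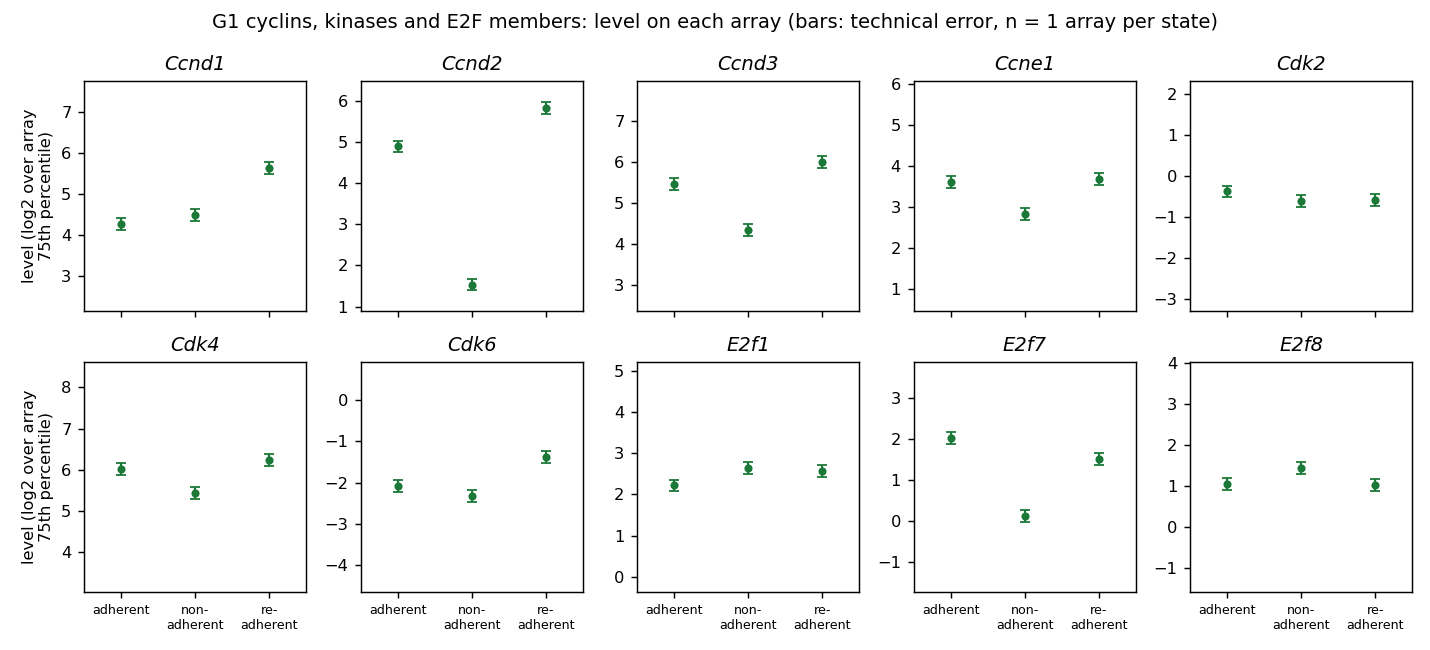
Level of each measured G1 gene in the 3 states (adherent, non-adherent, re-adherent), as log2 signal over the array's 75th percentile, with the technical error of the spot. Each panel spans the same number of log2 units, so that differences can be compared: Ccnd2 drops to 1.54 in suspension, whereas Ccnd1 reaches its highest level, 5.64, in re-adherent cells.

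Genes of DNA replication went both ways in suspension, from -1.24 to 0.81. Within their technical error were 3 of 14, beside 3295 of all 15394 genes. The 6 subunits of the MCM helicase, Mcm2 to Mcm7, which open the double helix ahead of the polymerases, differed by -0.83 to -0.03 in suspension, by 0.02 to 0.53 on re-adhesion and by -0.30 to 0.14 between re-adherent and adherent cells. Mcm4 stood at the low end, with levels of 4.70, 3.87 and 4.40. Mcm5 had levels of 3.79, 3.76 and 3.92, and Mcm6 of 5.77, 5.66 and 5.68, which is within the technical error in suspension. The signs of the differences of Mcm3, Mcm5 and Mcm6 in suspension changed with scaling or background correction.

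The enzymes that make nucleotides for DNA synthesis were lower. Rrm1 and Rrm2 encode the large and small subunits of ribonucleotide reductase, the enzyme that turns ribonucleotides into deoxyribonucleotides. Rrm1 had levels of 4.95, 3.77 and 4.95 and Rrm2 of 5.01, 3.77 and 4.91. Both fell in suspension, by 1.17 and 1.24, and rose on re-adhesion by 1.17 and 1.13, although these rises were below 2-fold under 4 of the other scalings. They were the only replication genes called in suspension. Tyms, which encodes thymidylate synthase, differed by -0.83 and 0.52.

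The genes that license replication origins and guard that step gave both signs. Cdc6, which loads the helicase, had levels of 0.44, -0.28 and -0.13, a difference of -0.72 in suspension against -0.05 by its second probe. Its partner Cdt1 had levels of 3.84, 4.31 and 3.83, and the Cdt1 inhibitor Gmnn (geminin) of 1.40, 1.91 and 0.90. Gmnn was thus 0.51 above adherent cells in suspension, fell by 1.01 on re-adhesion, or by 0.97 with the normexp background correction, and ended at -0.50. Pcna, the sliding clamp of the polymerases, had levels of 5.14, 5.96 and 5.24, so it was highest in suspension by 0.81. Cdc45, a cofactor of the helicase, differed by -0.32 in suspension and -0.37 between re-adherent and adherent cells.

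Genes of mitosis were lower in suspension in 27 of 30 cases counted at any size, beside 8192 of all 15394 genes. Over 2-fold, 12 of the 30 were lower. Ordered by role, with roles assigned after the values had been seen, the 4 genes of cytokinesis had the largest shift of the groups with more than 2 genes, a median of -1.25 in suspension. The 10 kinases, cyclins and phosphatases had a median of -0.99, the 5 spindle motors and their partners -0.97, the 4 checkpoint and anaphase genes -0.71 and the 5 chromosome and centromere genes -0.49. The 2 transcription factors, Mybl2 and Foxm1, had a median of -1.28.

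Anln encodes anillin, a scaffold of the contractile ring that divides the cell. Its levels were 4.74, 2.43 and 4.42, so it fell by 2.32 ± 0.20 in suspension, a 4.99-fold difference, and rose by 2.00 on re-adhesion. It was the only mitosis gene over 4-fold lower. Prc1, which bundles microtubules of the central spindle, had levels of 4.86, 3.44 and 4.61. Ect2, which activates RhoA at the division plane, had levels of 2.02, 0.94 and 1.66. Both fell in suspension, by 1.42 and 1.07, and Prc1 rose by 1.16 on re-adhesion. Kif23, a motor of the central spindle, differed less, by -0.71 and 0.44.

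Cdc20 activates the anaphase-promoting complex, which triggers the separation of sister chromatids. Its levels were 5.17, 3.38 and 5.21, so it fell by 1.79 in suspension, rose by 1.84 on re-adhesion and ended 0.04 from the adherent level. The spindle checkpoint genes that hold Cdc20 in check differed by less. Bub1 had levels of 1.19, 0.74 and 0.94, a difference of -0.45 ± 0.06, the smaller error coming from repeated spots. Bub1b differed by -0.29 and Ttk by -0.97, and Ttk stayed at -0.84 in re-adherent against adherent cells, or -0.45 under another setting.

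Among spindle genes the kinesin Kif20a had levels of 3.67, 1.90 and 3.59, so it fell by 1.78 and then rose by 1.69. Tpx2, which nucleates spindle microtubules and activates Aurora A, had levels of 3.29, 1.92 and 3.00. It fell by 1.37, against -0.64 by its second probe. Kif11, Cenpe and Nusap1 differed by -0.62, -0.97 and -0.50 in suspension, and Cenpe remained -0.70 from adherent cells after re-adhesion.

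Among the kinases of mitosis, Aurka, Plk1 and Melk fell by similar amounts in suspension, whereas Aurkb and Bub1 differed by -0.33 and -0.45. The kinase Ttk differed by -0.97. Aurkb was read by 1 probe at dim signals of 133, 113 and 97.9 units, and the effect of probe brightness on this contrast was not tested. Aurka (Aurora A) had levels of 4.35, 3.21 and 4.33, Plk1 (Polo-like kinase 1) of 5.09, 4.01 and 4.96, and Melk of 1.93, 0.77 and 1.67. Their falls in suspension were 1.15, 1.07 and 1.16. Aurka rose by 1.12 on re-adhesion, and Plk1 and Melk differed by 0.94 and 0.90.

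Cdk1, the master kinase of mitosis, had levels of 3.19, 2.09 and 2.77. It fell by 1.09, against -0.88 and -0.36 by its other probes. Its partner Ccnb1, cyclin B1, had levels of 3.83, 2.76 and 3.54 and fell by 1.07. Ccnb2 and Ccna2, which encode cyclins B2 and A2, differed by -0.46 and -0.56. The phosphatases that activate Cdk1 went opposite ways: Cdc25c differed by -0.91 in suspension and Cdc25b by 0.74.

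Mybl2 (B-Myb) and Foxm1, the activators of mitosis genes, were also low in suspension. Mybl2 had levels of 3.66, 2.08 and 3.26. It fell by 1.58 and rose by 1.18, whereas its second probe gave -0.54 and 0.18. Foxm1 had levels of 1.87, 0.88 and 1.58, so its difference of -0.98 was just under 2-fold, and spots around it differed by -0.54 between the re-adherent and non-adherent arrays.

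The widely used proliferation marker Mki67 did not move with them. Its levels were 4.84, 4.85 and 4.54, a difference of 0.01 ± 0.20 in suspension, or -0.24 with E1A scaling, and -0.30 between re-adherent and adherent cells. A second probe gave -0.01 and -0.39, and it was the only gene of 12 with several probes whose probes differed in sign in suspension. Other genes of chromosome structure were also below 2-fold: Top2a, the topoisomerase that untangles sister chromatids, differed by -0.50 and Cenpa, the centromeric histone, by -0.49. Cenpf went the other way by 0.65 ± 0.28, at signals of 38.7, 65.2 and 28.2 units that are among the dimmest here. Birc5 (survivin) and Aurkb (Aurora B), of the complex that checks chromosome attachment, differed by -0.71 and -0.33 in suspension.

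**Figure D3:**
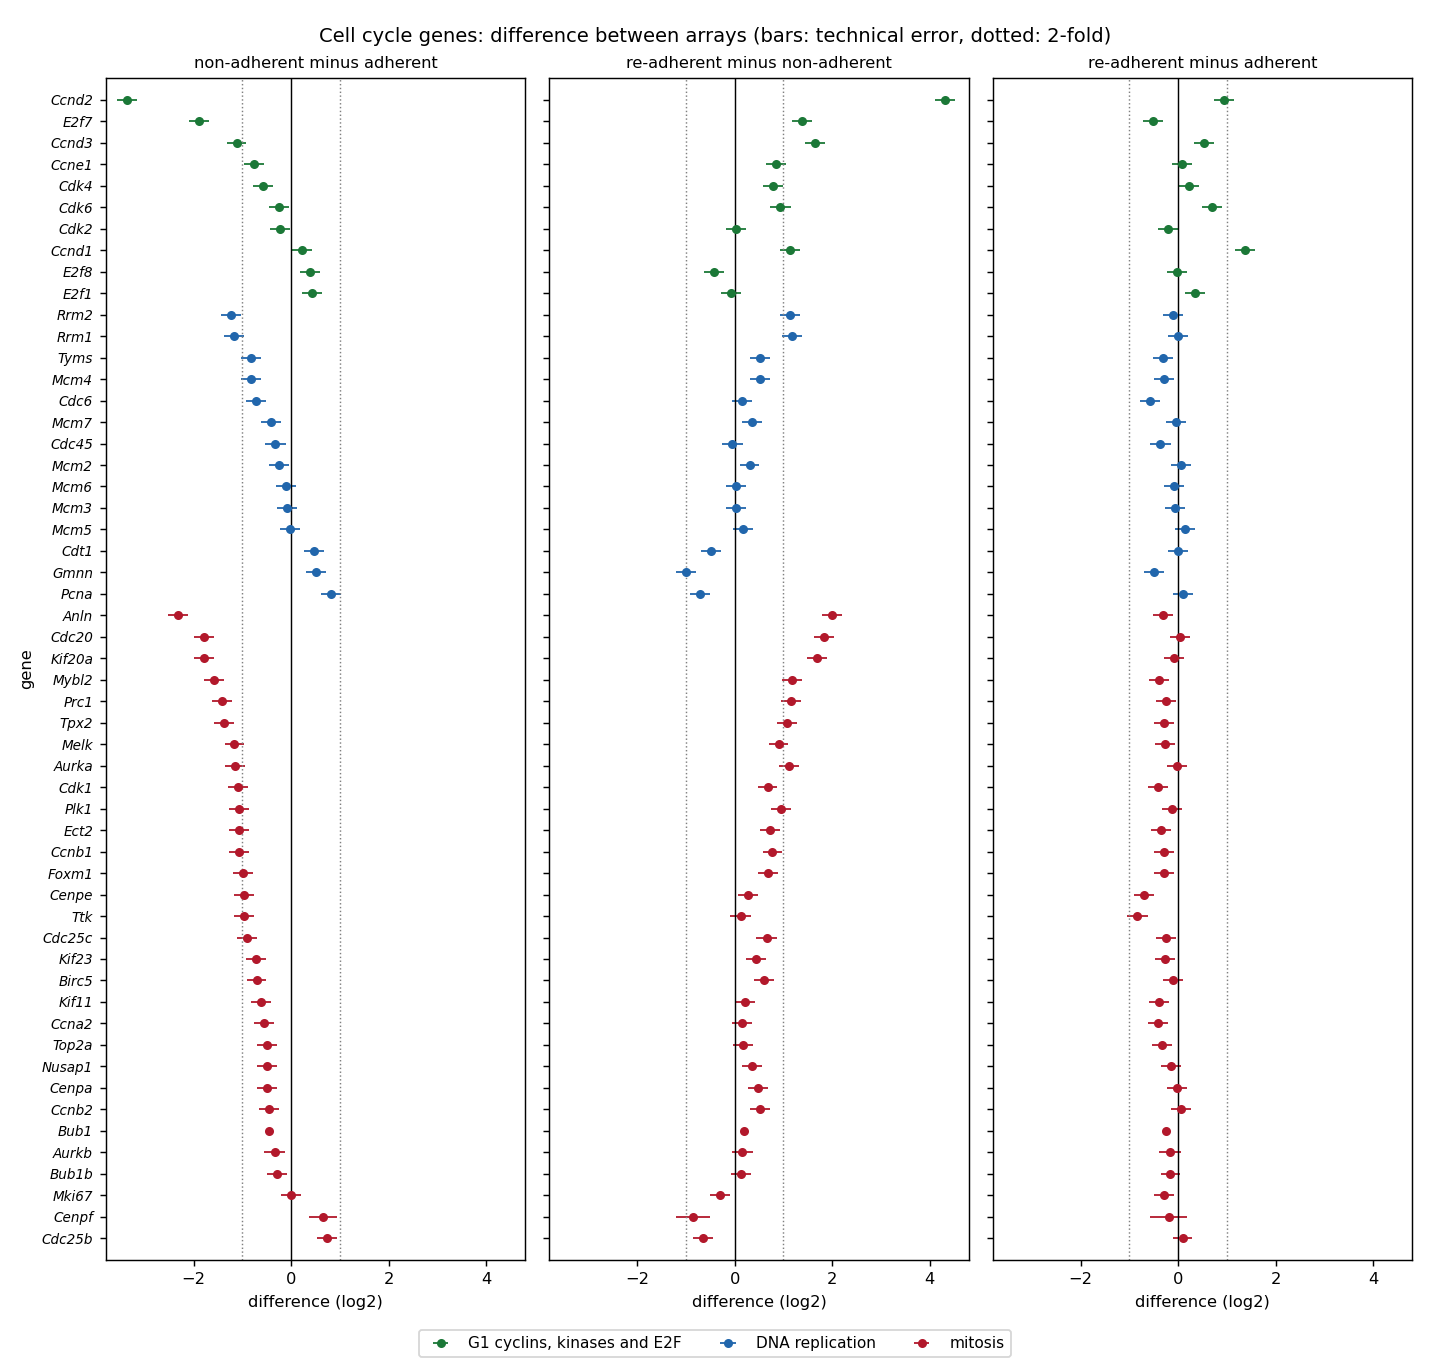
Log2 difference of each of the 54 measured genes for non-adherent minus adherent, re-adherent minus non-adherent and re-adherent minus adherent arrays, sorted within phase by the first panel, with the technical error as bars and dotted lines at 2-fold. In the mitosis block the points run from Anln at -2.32 to Cdc25b at 0.74 in the first panel and close in on 0 in the third.

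Return to the adherent level was read gene by gene. Of the 17 genes lower in suspension, 12 were higher again on re-adhesion by over 2-fold, and 14 ended within 0.5 of their adherent level on the log2 scale. These shares, 70.6% and 82.4%, stand beside 76.1% and 62.7% of the 2266 genes lower in suspension among all genes. Both steps use the same non-adherent array, so the counts are a description only. Between re-adherent and adherent cells 23 of 54 genes (42.6%) differed by no more than their technical error, which is near the 40.7% of all genes. At any size, 27 of 30 mitosis genes and 11 of 14 replication genes were below the adherent level, and 7 of 10 G1 genes were above it. Of all 15394 genes, 6764 were below it and 8630 above it. These small differences depend on the processing, and the sign changed under another scaling or background correction for 11 of the 54 genes in this pair, for 17 on re-adhesion and for 5 in suspension. The rises of Ccnd1, Aurka and Prc1 on re-adhesion were below 2-fold under the same 4 scalings as those of Rrm1 and Rrm2, the lowest values being 0.78 for Ccnd1, 0.76 for Aurka and 0.80 for Prc1, and those of Tpx2 and Mybl2 were as low as 0.71 and 0.68.

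Other genes of the same pathways, listed by name, were read in the same way. Of 40 other replication genes 8 were lower in suspension (20%) and 0 higher, with a median of -0.54, and 1 was higher on re-adhesion. The shares of all genes were 14.7%, 17.2% and 15.6%. The lowest was Orc6, a subunit of the origin recognition complex, at -1.32. Of 49 measured other mitosis genes 14 were lower in suspension (28.6%) and 0 higher, with a median of -0.82, and 11 were higher on re-adhesion (22.4%), beside the same shares of all genes. The lowest was Depdc1a at -2.03 and the highest Pttg1, which encodes securin, the inhibitor of chromatid separation, at 0.43. Relative to all genes, the median in suspension was -0.47 for the other replication genes and -0.75 for the other mitosis genes. These lay closer together than the -0.21 and -0.87 of the replication and mitosis genes followed above. Between re-adherent and adherent cells the medians were -0.21 for the other replication genes and -0.20 for the other mitosis genes.

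Promoter sequences were set beside these values as a description, and shared regulation was not tested. RefSeq promoters of GRCm38.p6 were found for 44 of the 55 genes, 48 promoters in all. No entry was used for Ccnd1, Ccnd2, Ccne2, Gmnn, Mcm4, Ccna2, Aurkb, Cdc25c, Foxm1, Kif20a and Tpx2. The 250 bases before the start were searched on both strands. The E2F motif was searched as TTTCCCGC or TTTGGCGC or TTTCGCGC or TTTGCCGC, the CHR as TTTGAA or TTCGAA, and the CCAAT box as CCAAT. E2F matches on opposite strands can overlap each other. The 6 promoters printed here are the 160 bases before the start of the gene, in its sense direction, with motif matches in capitals.

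They show a gene with a large fall (Cdc20), one that holds all 3 motifs (Cdk1), the mitosis gene that fell most and had no match (Anln), one whose level did not move (Mki67) and a pair of replication genes that hardly moved (Mcm5, Mcm6). They lie at chr4:118437344-118437503 for Cdc20, chr10:69352913-69353072 for Cdk1, chr9:22389207-22389366 for Anln, chr7:135716380-135716539 for Mki67 and chr1:128359706-128359865 for Mcm6, all on the minus strand, and at chr8:75109349-75109508 on the plus strand for Mcm5.
Cdc20: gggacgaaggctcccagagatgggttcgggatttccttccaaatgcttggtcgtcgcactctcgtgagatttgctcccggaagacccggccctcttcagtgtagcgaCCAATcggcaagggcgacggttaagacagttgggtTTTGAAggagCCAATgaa
Cdk1: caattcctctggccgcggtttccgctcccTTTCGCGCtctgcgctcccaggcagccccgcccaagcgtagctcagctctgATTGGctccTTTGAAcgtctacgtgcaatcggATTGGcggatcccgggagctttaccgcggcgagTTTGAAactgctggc
Anln: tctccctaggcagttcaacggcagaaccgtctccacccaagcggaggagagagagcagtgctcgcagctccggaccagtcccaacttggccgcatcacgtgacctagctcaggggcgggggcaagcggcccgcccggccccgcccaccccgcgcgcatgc
Mki67: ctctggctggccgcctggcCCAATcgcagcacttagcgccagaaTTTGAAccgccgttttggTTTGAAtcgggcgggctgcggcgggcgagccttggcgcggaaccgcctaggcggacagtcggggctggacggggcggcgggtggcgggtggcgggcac
Mcm5: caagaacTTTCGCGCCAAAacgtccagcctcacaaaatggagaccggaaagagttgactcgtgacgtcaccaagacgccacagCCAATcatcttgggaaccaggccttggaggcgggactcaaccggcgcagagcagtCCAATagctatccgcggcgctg
Mcm6: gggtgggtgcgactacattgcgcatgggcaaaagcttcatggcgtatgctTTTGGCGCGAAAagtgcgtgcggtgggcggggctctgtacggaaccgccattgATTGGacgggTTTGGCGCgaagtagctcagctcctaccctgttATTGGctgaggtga

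In Cdc20 a CHR begins 18 bases before the start with CCAAT boxes at 53 and 8 bases, and in Cdk1 CHRs begin at 71 and 15 bases. Mki67 has CHRs at 116 and 98 bases and a CCAAT box at 141 bases. In suspension Cdc20 fell by 1.79 and Mki67 differed by 0.01, and a link between motifs and these differences was not tested. Mcm5 holds overlapping E2F matches at 153 and 149 bases, and Mcm6 at 110 and 106 bases, with another at 47 bases.

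Over all promoters of the groups, the CCAAT box was in 21 of 26 mitosis promoters (80.8%), 10 of 13 replication promoters (76.9%) and 4 of 9 G1 promoters (44.4%), against 33.8% of 32851 promoters. A CHR was in 10 of 26 mitosis promoters (38.5%), against 3 of 13, 1 of 9 and 17.1% of all promoters. The E2F motif was in 4 of 13 replication promoters (30.8%), 2 of 9 G1 promoters (22.2%) and 1 of 26 mitosis promoters (3.85%), against 1.86% of all. The 9 mitosis genes with a CHR had a median of -0.62 in suspension and the 15 without one -0.97. A match says only that the letters are present.

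**Figure D4:**
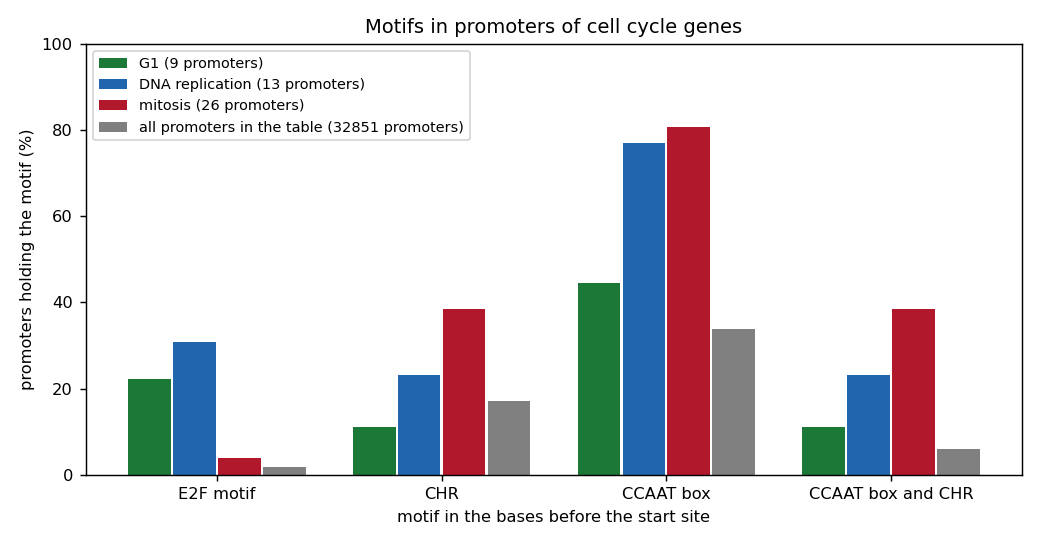
Share of promoters, in percent, that hold the E2F motif, the CHR, the CCAAT box, or both CCAAT box and CHR in the bases searched, for G1, replication and mitosis genes and for all promoters of the table. CCAAT boxes are in 80.8% of mitosis promoters against 33.8% of all, and E2F motifs are most frequent in replication promoters, at 30.8%.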

How the data were processed

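Gene expression was measured on 1-colour Agilent SurePrint G3 mouse arrays in adherent, non-adherent and re-adherent cardiac myofibroblasts, 1 array per state. Per the file headers the deposited scanner intensity values were made with Agilent Feature Extraction 10.10.1.1 and are its processed signal, from which background had been subtracted. The authors' series matrix held intensity values that equalled this signal times 1 constant per array (1.52, 1.52 and 1.62). All 3 arrays shared a slide and a scan.

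Control spots and spots flagged as non-uniform or population outliers (154, 180 and 175 on the 3 arrays) were left out, and none of the rest was saturated. Each array's 75th percentile was subtracted from the log2 processed signal, and spots of a probe were averaged. Of 55665 probes, 27229 matched a RefSeq transcript of GRCm38.p6 without its version. A gene was read by its probe with the highest mean among those well above background on at least 1 array, which left 15394 genes. The technical error combines the software's errors of the spots compared. With 1 array per state no test was run, and the number of arrays limits the precision. The calculation was tested on simulated data.

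The genes, lists and motifs were chosen with earlier results of these data known. By the rule for named genes, values on every array are given for members over 4-fold different in any pair, for D- and E-type cyclins, their kinases and E2F members, for members whose probes disagree in direction and for Mki67. Other members given in full were chosen after their values were seen. Of the other lists, at most the 3 largest and smallest differences are named, except the markers Ptprc, Kdr and Tnnt2, which were chosen after their values were seen.

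Alternatives were normexp background correction (limma 3.58.1, R 4.3.3, offset 50), quantile normalization, no scaling, the authors' values, scaling to E1A control spots, a filter to genes well above background on all 3 arrays, low signals raised to the floor, the mean over probes, and removal of genes in patches. Normexp was planned on mean signals and run on median signals, the column given. Analysis used Python 3.11.15, numpy 2.4.6 and pandas 2.3.3.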

Additional observations from a re-analysis of the deposited data

How the results depend on the processing

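No paired analysis was possible because there is 1 array per state, and leaving out a replicate was not possible for the same reason. Of 135 values of the group medians and counts under 9 alternatives, 120 stayed within the limits set. The limit for counts was wide and took in the changes from 17 to 13 and to 24 given below. Not every value could move. No scaling, the authors' values and E1A scaling shift all genes of an array alike, so medians relative to all genes cannot change. The filter could not change the counts, since each measured gene was well above background on every array. The sign changed for 1 median, that of the replication genes relative to all genes on re-adhesion, from 0.08 to -0.02 with the normexp correction. The median of the mitosis genes relative to all genes in suspension was -0.62 with the normexp correction, against -0.87. The 17 genes over 2-fold lower in suspension became 13 without scaling or with the authors' values and 24 with E1A scaling. For genes over 2-fold higher in suspension, 0 became 1 after quantile normalization. For genes over 2-fold lower on re-adhesion, 1 became 0 with normexp, 4 without scaling, and 2 with quantile normalization, the authors' values or E1A scaling. The 13 genes over 2-fold higher on re-adhesion became 7 after quantile normalization and 6 without scaling, with the authors' values or with E1A scaling. Between re-adherent and adherent cells, 0 genes over 2-fold lower became 1 without scaling or with the authors' values and 3 with E1A scaling, and 1 gene over 2-fold higher became 0 with E1A scaling. Of 32 single-gene differences over 2-fold, 18 stayed over 2-fold under all 9 alternatives and none changed sign. Among the others, the fall of Cdk1 in suspension was -0.78, and the rises of E2f7 and Mybl2 on re-adhesion were 0.83 and 0.68, with the mean over probes.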

Other observations

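Of 16 pocket protein, E2F and associated genes, 2 were over 2-fold lower in suspension and 2 over 2-fold higher, with a median of -0.10. This is 12.5% each way, against 14.7% lower and 17.2% higher among all genes. E2f2, an activating E2F, had levels of 0.30, 3.04 and 1.86 in adherent, non-adherent and re-adherent cells, a rise of 2.75 in suspension. The pocket protein gene Rbl2 (p130) rose by 1.37 and fell by 1.34 on re-adhesion. The E2F partners Tfdp1 and Tfdp2 fell by 1.13 and 1.31 and rose by 1.03 and 1.54.

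Of 7 genes of CDK inhibitors, 1 was over 2-fold lower in suspension (14.3%) and 0 were higher, with a median of 0.05. Among all genes 14.7% were lower and 17.2% higher. For 4 of the 7 the difference in suspension was within the technical error. Between re-adherent and adherent cells 1 of the 7 was lower (14.3%) and 2 were higher (28.6%), against 4.9% and 4.84% of all genes. Cdkn2a, which encodes p16 and p19ARF, had levels of 1.36, -0.15 and 2.76. It fell by 1.51 in suspension and ended 1.41 above the adherent level. Cdkn1a (p21) had levels of 4.10, 3.97 and 5.26, ending 1.16 above it, whereas Cdkn1c (p57) ended at -1.20.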
